A study of Mus musculus with 12 samples.

Results

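The 10 genes described here encode proteins on the surface of mouse embryonic stem (ES) cells, or enzymes that build the sugars displayed there, and they are used to stain or sort these cells. They were chosen by name, taking every probe assigned to Alpl, Alppl2, Fut4, Fut9, Prom1, Podxl, Epcam, Pecam1, Icam1 or Kit, older symbols included. This gave 19 of the 41174 probes of the array and 10 of the 21179 genes it names. ES cells are cultured pluripotent cells of the early embryo, and retinoic acid, the active form of vitamin A, makes them differentiate. The series is named for histone H4 lysine 16 acetylation, and its arrays compare undifferentiated mouse ES cells with mouse ES cells given retinoic acid for 3 days. The labels name no ES cell line, genotype, strain, culture medium, feeder layer or retinoic acid dose, so it is not known whether the cells of both groups shared an allele or an agent beyond this. Each group holds 3 biological samples, and total RNA of each was amplified, labelled with Cy3 and put on 2 technical arrays, 12 arrays in total. Whether the biological samples of a group are separate cultures is not stated, and the p-values cover only the spread between the samples at hand, which may be technical.

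Tissue-nonspecific alkaline phosphatase, anchored in the membrane by a glycosylphosphatidylinositol (GPI) lipid, gives undifferentiated colonies their classic enzyme stain. The antigen SSEA-1, another standard stain of mouse ES cells, is no protein but the Lewis x sugar, which forms when a fucosyltransferase adds fucose to a chain of alternating galactose and N-acetylglucosamine. Other members are transmembrane proteins that hold cells together (Epcam, Pecam1, Icam1), shape the apical membrane (Prom1, Podxl) or receive a growth factor signal (Kit), and each of them also serves in other cell types, among them epithelium, endothelium and blood progenitors. The arrays measured transcripts, and not the proteins, the enzyme activity or the sugar.

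After 3 days in retinoic acid, transcripts of Prom1 and Fut4 rose and those of Fut9 fell, and no change passed the test for the other 7 genes. Prom1 rose by 3.02 ± 0.28 (SE, n = 3 samples per group) and Fut4 by 2.59 ± 0.19 (SE, n = 3) on the log2 scale, while Fut9 fell by 0.68 ± 0.15 (SE, n = 3). With quantile normalisation, the classic stain gene Alpl and the sorting markers Epcam, Pecam1 and Kit differed by 0.21 or less between the group means. Alpl and Epcam differed by more with other scalings, given below, and were not called there either. Icam1 gave different answers with its 2 probes. RNA came from whole cultures, so fewer cells expressing a gene and less of its RNA per cell cannot be told apart here. Levels are log2 of the quantile-normalised net intensity plus 50, technical arrays averaged. Changes are retinoic acid minus undifferentiated, for the probe of each gene with the highest mean log2 intensity unless another is named. Adding 50 makes changes of dim genes smaller than they were.

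A gene was tested if its probe exceeded the background limit, the 95th percentile of the array's negative control spots, on 4 or more of 6 arrays in either group, and it was called higher or lower at a Benjamini-Hochberg adjusted p under 0.05 in limma over all 15326 genes tested. All 10 members were tested, and 8 exceeded the limit on all 12 arrays. Called higher were 2 of the 10 members, against 18.7% of all genes tested, and called lower was 1 of 10, against 13.6%, so 3 of 10 were called against 32.3%. The values of both groups did not overlap for these 3 members (2 upward and 1 downward), against 46.6% of all genes tested. The members' shares of calls are near these background shares, and their share without overlap is no higher. The median change of the 10 members was -0.03, and that of all genes tested 0.0035.

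**Figure D1:**
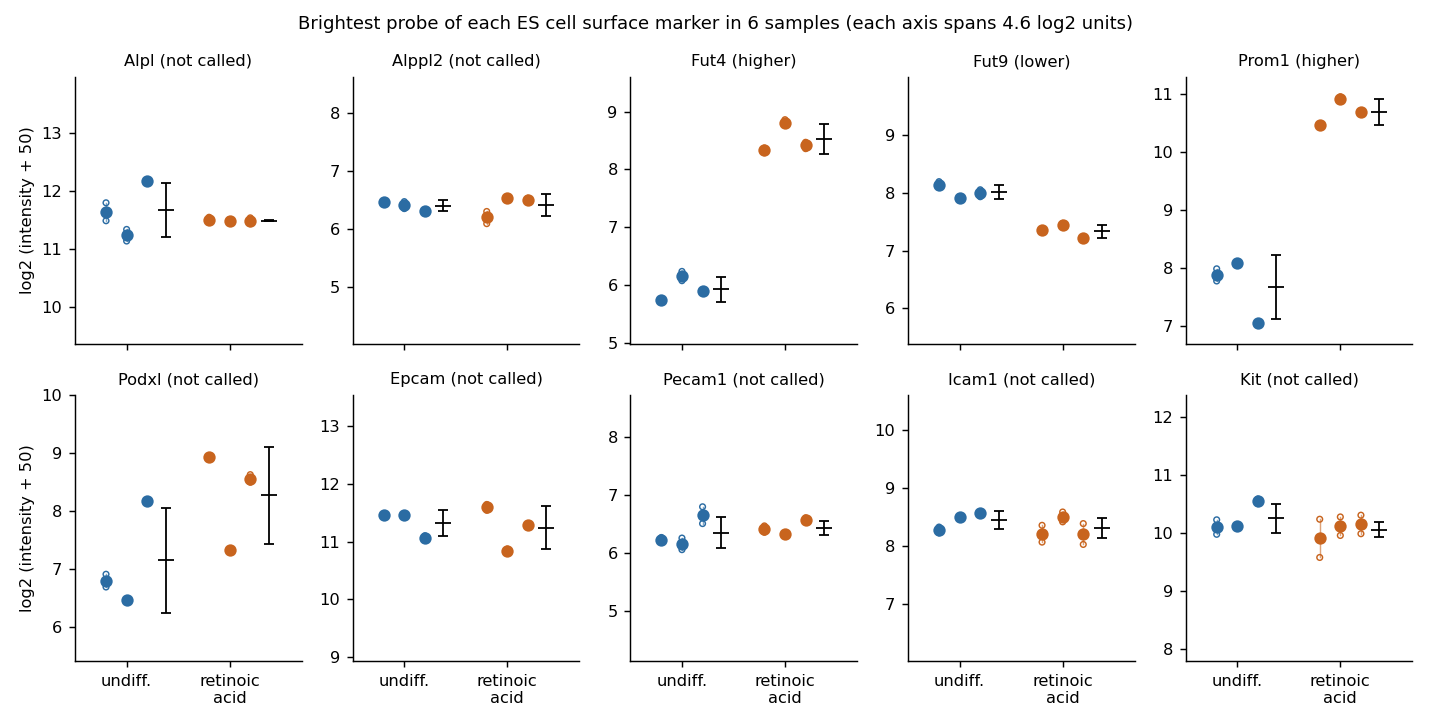
Level of each of the 10 genes, as log2 of intensity plus 50 (vertical axes, each spanning the same number of log2 units), in the undifferentiated (blue) and retinoic acid (orange) samples; filled points are samples 1 to 3 from left to right, open points their technical arrays, and the cross bars the group mean ± SD (n = 3). Prom1, Fut4 and Fut9 have groups that do not overlap, and Podxl has 1 undifferentiated sample (8.18) level with the retinoic acid samples.

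**Figure D2:**
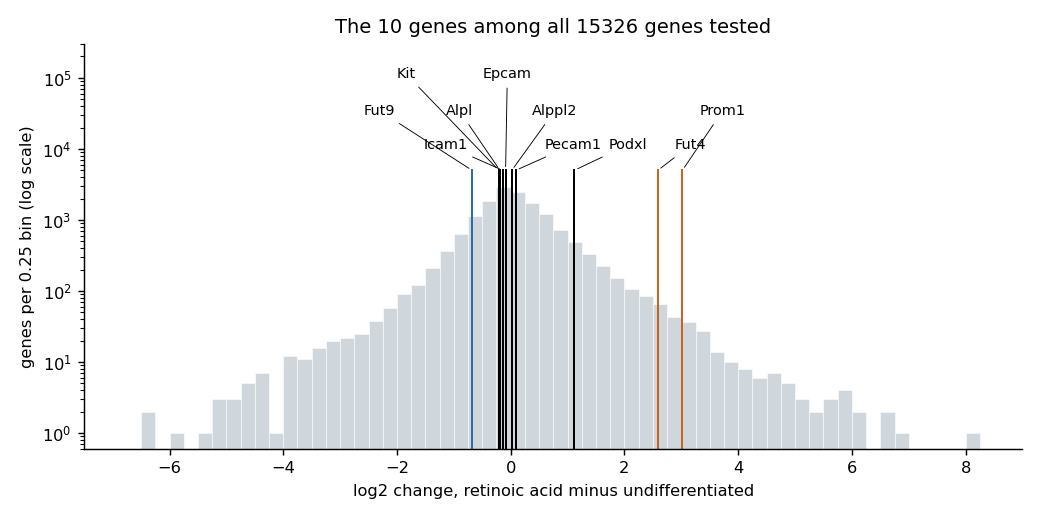
Changes of the 10 genes (vertical lines; orange called higher, blue called lower, black not called) over the distribution of changes of all 15326 genes tested (grey bars, log scale). Prom1 at 3.02 and Fut4 at 2.59 stand in the right tail, and 6 of the 7 genes not called lie between -0.21 and 0.09. Icam1 is among these 6 with the probe drawn here, while its other probe, at -2.27, was called lower.

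Net intensities had medians of 37.4 to 96.6 between arrays, background limits ran from 8.50 to 51.6, and 53.8% to 85.0% of probes exceeded the limit. Their number, 3 samples per group, limits the precision. The file of undifferentiated sample 2, technical array 2, names the other technical array of that sample in its header, and no call of a member changed without it. Of the list of undifferentiated ES cell markers 11 of 12 tested genes fell, among them Pou5f1 (-4.72), Nanog (-3.67) and Sox2 (-3.05), and all 12 exceeded the limit on all 12 arrays. Undifferentiated sample 3 was the highest or the lowest of its group for 8 of the 10 genes, the highest for Alpl, Podxl, Pecam1, Icam1 and Kit and the lowest for Prom1, Epcam and Alppl2, and values without it are given where they change a call or a direction.

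The promoters of the members with the largest rises, and of Icam1, whose probes disagreed, are printed from RefSeq (GRCm38.p6), from 250 bases before to 50 bases after the transcription start, to show the sequence at which these transcripts begin. Of the 10 members 7 have an entry, with 10 windows in all; Fut9, Pecam1 and Podxl have none. Capitals mark matches, on either strand, to GGGCGG (the GC box bound by Sp1-type factors), TATAAA (the TATA box) and GGAAATTCC (the NF-kB motif known from the Icam1 promoter). The window of Fut4, chr9:14752073-14752372 on the minus strand, has 18 CpG and no match. The first window of Prom1, chr5:44101687-44101986 on the minus strand, has 10 CpG and 1 GC box. The window of Icam1, chr9:21015690-21015989 on the plus strand, has 19 CpG, 2 GC boxes, 1 TATA box and 1 match to GGAAATTCC.
Fut4: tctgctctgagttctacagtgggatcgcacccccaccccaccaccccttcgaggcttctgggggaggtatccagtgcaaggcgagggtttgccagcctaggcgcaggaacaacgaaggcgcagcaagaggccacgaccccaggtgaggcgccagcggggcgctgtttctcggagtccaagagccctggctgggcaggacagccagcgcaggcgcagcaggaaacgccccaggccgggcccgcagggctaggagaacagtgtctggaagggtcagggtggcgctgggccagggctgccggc
Prom1: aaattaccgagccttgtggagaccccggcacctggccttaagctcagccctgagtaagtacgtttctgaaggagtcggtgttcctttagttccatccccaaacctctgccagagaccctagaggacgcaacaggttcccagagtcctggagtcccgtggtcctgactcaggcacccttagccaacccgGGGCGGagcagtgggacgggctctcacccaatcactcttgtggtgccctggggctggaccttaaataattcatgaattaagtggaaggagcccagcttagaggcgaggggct
Icam1: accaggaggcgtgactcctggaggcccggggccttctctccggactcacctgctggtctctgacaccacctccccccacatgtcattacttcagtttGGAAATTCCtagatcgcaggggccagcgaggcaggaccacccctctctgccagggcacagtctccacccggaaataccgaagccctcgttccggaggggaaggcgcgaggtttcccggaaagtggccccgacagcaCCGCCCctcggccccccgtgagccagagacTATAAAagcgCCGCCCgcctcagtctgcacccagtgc

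GGGCGG occurs in 35.7% of the 32851 windows of the table, TATAAA in 13.6% and GGAAATTCC in 0.317%. Also searched on both strands were AGGTCA, the hormone response motif that retinoic acid receptors bind in pairs (16.3% of windows), its direct repeat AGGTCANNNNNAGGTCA (0.00913%), and ATGCAAAT, the octamer motif (1.74%). The repeat contains AGGTCA, and none of the other motifs contains another. None of these 3 occurs in the windows of Fut4, Prom1 or Icam1. Among the other members' windows, AGGTCA occurs once, in the second window of Alpl. These matches describe letters only, and no binding was measured.

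The alkaline phosphatases come first among the members by use. Alpl encodes the tissue-nonspecific enzyme of the ES cell stain. Its level was 11.64, 11.24 and 12.17 in undifferentiated samples 1 to 3 and 11.51, 11.48 and 11.49 in retinoic acid samples 1 to 3. The retinoic acid samples were almost equal and lay inside the spread of the undifferentiated ones, which was set by a high sample 3 and a low sample 2. The means were 11.68 ± 0.47 (SD, n = 3) and 11.49 ± 0.01 (SD, n = 3), and the change of -0.19 ± 0.24 (SE), with a 95% confidence interval from -0.74 to 0.35, was not called (limma, adjusted p = 0.588). Without undifferentiated sample 3 the change was 0.05. It was -0.48 with scaling to the 75th percentile (limma, adjusted p = 0.124) and -0.45 with scaling to the median (adjusted p = 0.176), and neither was called.

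Alppl2 encodes a second, embryonic alkaline phosphatase. Its probe was dim, with intensities of 27.3 to 39.4 on the undifferentiated and 18.2 to 43.8 on the retinoic acid arrays, and it exceeded the background limit on 4 of 6 and 5 of 6 arrays. Levels of 6.47, 6.41 and 6.30 in undifferentiated and of 6.20, 6.54 and 6.50 in retinoic acid samples overlapped. The change of 0.02 ± 0.16 (SE), interval -0.35 to 0.39, was not called (limma, adjusted p = 0.949), and so close to background a change would be understated.

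Among other alkaline phosphatases and the genes that build and attach the GPI anchor, 26 were tested: 5 were higher, 2 lower and 19 not called, with a median change of 0.37. The higher calls numbered 3 with scaling to the 75th percentile, and 2 to 6 with 1 sample left out. Pigp, a subunit of the enzyme that starts the anchor, rose by 1.34 ± 0.15 (SE), while Piga, the catalytic subunit of that enzyme, fell by 1.05 ± 0.17 (SE) with 1 probe and changed by -0.39 with the other, which was not called. Pigl, which acts at the next step, fell by 1.07 ± 0.29 (SE), but was not called without undifferentiated sample 3 (limma, adjusted p = 0.055), retinoic acid sample 1 (0.0749) or retinoic acid sample 3 (0.0966). Its second probe changed by -1.59.

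The fucosyltransferases moved in opposite directions. Fut4 and Fut9 encode the enzymes that add fucose in the linkage of Lewis x, and Fut9 is known as the main Lewis x enzyme of the early mouse embryo and the brain. Fut4 stood at 5.74, 6.16 and 5.90 in the undifferentiated samples and at 8.33, 8.81 and 8.42 after retinoic acid. All 3 retinoic acid samples exceeded all undifferentiated samples by more than 2 log2 units. The means were 5.93 ± 0.21 (SD, n = 3) and 8.52 ± 0.26 (SD, n = 3), a rise of 2.59 ± 0.19 (SE), or 6.01-fold on this scale (limma, adjusted p = 6.36e-05).

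In undifferentiated cells Fut4 was close to background. Its intensity was 3.12 to 25.4, above the limit on 2 of 6 arrays, against 263 to 414 after retinoic acid, above it on 6 of 6. The size and the fold of the rise therefore depend on the added value, and the rise was 4.01 with 10 and 4.95 with 1 in place of 50. The call held in all 21 alternatives that could test the gene. Fut4 has a pseudogene, Fut4-ps1, with 2 probes of its own: their changes were -0.26 (limma over all probes, adjusted p = 0.507) and -0.02 (above the limit on 0 of 12 arrays, not tested). Whether the Fut4 probe also detects the pseudogene was not tested.

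Fut9 stood at 8.14, 7.90 and 7.99 in the undifferentiated samples and at 7.35, 7.44 and 7.21 after retinoic acid. Every retinoic acid sample was lower than every undifferentiated sample, with a narrow spread in both groups. The fall from 8.01 ± 0.12 (SD, n = 3) to 7.33 ± 0.12 (SD, n = 3) was 0.68 ± 0.15 (SE), 1.60-fold (limma, adjusted p = 0.0112). It was not called without retinoic acid sample 3 (-0.62, adjusted p = 0.0631), with the second brightest probe (-0.69, adjusted p = 0.0522) or at a threshold of 0.01. The change ran from -0.90 to -0.61 over the 22 alternatives, so the direction held in these and the call did not.

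The array carries 6 probes for Fut9. The 5 probes designed on the transcript NM_010243 all had negative changes. In limma over all probes those with changes of -0.68, -0.95 and -0.71 were called lower (adjusted p = 0.0149, 0.00604 and 0.0137), and those with -0.69 and -0.57 were not (0.0537 and 0.105). The probe at -0.95 exceeded the limit on 2 of 6 retinoic acid arrays. The probe at -0.71 exceeded it on 6 of 6 undifferentiated and 0 of 6 retinoic acid arrays, so it was at least 2.03-fold lower there, setting the undifferentiated mean against the higher, on each array, of its own signal and the lowest signal above the limit. Without the added 50 its measured means were 5.63 and 3.46 in log2. The remaining probe, on ENSMUST00000149875, was above the limit on 1 of 6 undifferentiated and 0 of 6 retinoic acid arrays and was not tested.

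**Figure D3:**
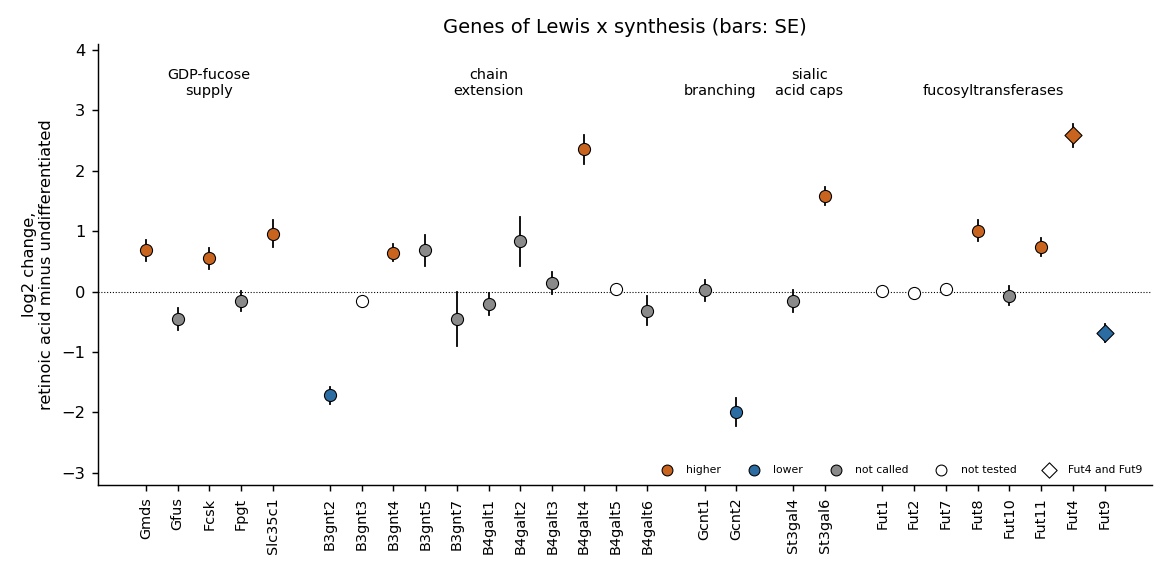
Changes in log2 intensity (vertical axis, bars ± SE) of the genes listed with Lewis x synthesis, ordered along the horizontal axis by step. Diamonds are Fut4 and Fut9, and Fut8 is shown though it makes no Lewis x. Fut4 (2.59), B4galt4 (2.36) and St3gal6 (1.58) are the highest called points, and Gcnt2 (-1.99), B3gnt2 (-1.72) and Fut9 (-0.68) the only called points below 0.

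Of the other genes listed with this pathway 21 were tested, and 8 were higher, 2 lower and 11 not called, with a median change of 0.14. The 8 include Fut8, which makes no Lewis x, and St3gal6, which can cap the chain with sialic acid. With 1 sample left out 5 to 8 were higher and 2 or 3 lower. The chain that Fut4 and Fut9 act on is lengthened by alternating enzymes. B3gnt2, the main enzyme adding N-acetylglucosamine to it, fell by 1.72 ± 0.14 (SE), from 10.59 to 8.88, and its second probe changed by -1.46. Gcnt2, which branches the chain, fell by 1.99 ± 0.23 (SE), with a second probe at -1.15. B4galt4, a galactosyltransferase, rose by 2.36 ± 0.24 (SE), from 7.90 to 10.27. In limma these 3 had adjusted p of 0.000103, 0.000506 and 0.000265.

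Further genes of the list are named here after their values were seen. St3gal6, which can cap the chain with sialic acid, rose by 1.58 ± 0.15 (SE), from a level above the limit on 4 of 6 undifferentiated arrays, and its second probe, at 0.37, was not called (limma, adjusted p = 0.101). Of the genes that supply GDP-fucose, the donor for all fucosyltransferases, Gmds, Fcsk and the Golgi transporter Slc35c1 were called higher, at 0.68, 0.55 and 0.96. These calls were lost in 4, 11 and 3 of the 22 alternatives, and the second probe of Slc35c1 was at 0.07. Gfus changed by -0.46 ± 0.18 (SE), which was not called (limma, adjusted p = 0.0947). Fut8, which fucosylates the core of N-glycans and makes no Lewis x, rose by 1.01, with a second probe at 0.34 that was not called. Fut11 was called higher at 0.74 ± 0.15 (SE, limma, adjusted p = 0.00718). Fut10 changed by -0.07 and was not called, with a second probe at 0.77. Fut1, Fut2 and Fut7 exceeded the limit on too few arrays to be tested.

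The glycolipids SSEA-3 and SSEA-4 mark other stages and human ES cells. Of a list of genes around their synthesis 7 were tested, and 4 were higher, none lower and 3 not called, with a median change of 0.56. Those higher were Ugcg (0.56) and the 3 sialyltransferases named next, and not all of these act in the globo series. B3galnt1 (-0.22), B4galt6 (-0.32) and Gla (-0.40) were not called. B3galt5 and B4galt5 exceeded the limit on too few arrays to be tested. St3gal5, which sialylates the precursor and so leads to gangliosides, and St3gal2, which caps the globo series, rose by 2.36 ± 0.20 (SE) and 1.85 ± 0.22 (SE), the latter by only 0.56 with its second probe, where the call was lost (limma, adjusted p = 0.0524). St3gal1, which acts mainly on O-linked sugars of proteins, rose by 1.48 ± 0.15 (SE), from a level above the limit on 1 of 6 undifferentiated arrays.

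Among the apical membrane members Prom1 (prominin-1, CD133) rose and Podxl was not called. Prom1 binds cholesterol in membrane protrusions and marks epithelial and neural progenitors. Its level was 7.88, 8.08 and 7.04 in the undifferentiated samples and 10.46, 10.92 and 10.69 after retinoic acid. Even the lowest retinoic acid sample exceeded the highest undifferentiated sample by more than 2 log2 units, and undifferentiated sample 3 was the lowest of all. The rise from 7.67 ± 0.55 (SD, n = 3) to 10.69 ± 0.23 (SD, n = 3) was 3.02 ± 0.28 (SE), 8.12-fold (limma, adjusted p = 0.000189). This exceeds the Fut4 rise only with 50 added: with 10 added Prom1 rose by 3.33 and Fut4 by 4.01.

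The second Prom1 probe, of the same transcript, stood between 6.60 and 7.06 in the undifferentiated samples, against 9.12, 9.58 and 9.50 after retinoic acid. It rose by 2.51 ± 0.20 (SE; limma over all probes, adjusted p = 0.000143), with the same low undifferentiated sample 3. Prom1 was called higher in all 22 alternatives, with changes of 2.51 to 3.41. Some markers of simple epithelium rose with Prom1: of 13 tested, 7 rose, none fell and 6 were not called. The largest rises were those of Krt19, Krt18 and Krt8, by 5.15, 4.78 and 4.65. Of the markers not called, Grhl2 (-0.76), Esrp1 (-0.47), Tjp3 (-0.47) and Elf3 (-0.37) had negative changes, and Cldn4 and Cldn7 positive changes. The summed intensity of this list was 3507 to 8844 in the undifferentiated and 67731 to 74954 in the retinoic acid samples. Without undifferentiated sample 3, 3 of the list were also called lower. Of 10 tested markers of neural progenitors, which also carry Prom1, 3 rose (Zic1 by 3.08, Msx1 by 3.07 and Pax6 by 1.71) and 7 were not called. The second probe of Zic1 was at 3.13. With the second brightest probe Msx1 was called lower (-0.53, limma, adjusted p = 0.0462) and Pax6 was not called (-0.25, adjusted p = 0.506). The summed intensity of the list was 3547 to 4936 in the undifferentiated and 6328 to 6667 in the retinoic acid samples. The part of either in the Prom1 result was not tested.

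Podxl (podocalyxin) is a sialomucin related to CD34 that keeps apical surfaces apart. Its level was 6.80, 6.47 and 8.18 in the undifferentiated samples and 8.93, 7.33 and 8.56 after retinoic acid. Undifferentiated sample 3 was high and retinoic acid sample 2 low, so that the groups overlapped, while technical arrays of a sample differed by 0.22 at most. The spread therefore lay between samples, not between arrays. The change of 1.12 ± 0.53 (SE), with an interval from -0.10 to 2.34, was not called (limma, adjusted p = 0.147), but it was called without undifferentiated sample 3 (1.64, adjusted p = 0.0327). With the replicate block the SE was 0.34, and the change was not called (limma, adjusted p = 0.0581). The second, dimmer probe of the same transcript changed by 0.10 and was not called.

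Among relatives and apical partners of Podxl and Prom1, 15 were tested, and 4 were higher, none lower and 11 not called, with a median change of 0.30. The counts were 2 higher and 1 lower when arrays were scaled to the 75th percentile or the median, and 2 or 3 higher with 1 sample left out. Podxl2, the closest relative of Podxl, rose by 1.42 ± 0.22 (SE), and its second probe (0.03) was above the limit on no array. Named after their values were seen, Cd34 (0.04 ± 0.22, SE), Prom2, the relative of Prom1 (0.21 ± 0.23, SE), and ezrin, Ezr, which ties Podxl to actin (-0.37 ± 0.17, SE), were not called. Pard6b, a polarity protein, rose by 1.30 ± 0.29 (SE), by 0.16 and 0.52 with its other probes. Cdc42, a polarity GTPase, was called at 0.57 ± 0.18 (SE), a call lost in 12 of the 22 alternatives, among them both other scalings (0.17 and 0.20), both other probe rules and 4 of the 6 fits without 1 sample.

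The adhesion members start with Epcam, a homophilic adhesion protein of epithelia that is also strong in ES cells. It stood at 11.46, 11.45 and 11.06 in the undifferentiated samples and at 11.59, 10.84 and 11.28 after retinoic acid. The groups overlapped fully, and the highest and the lowest value were both of retinoic acid samples. The change of -0.09 ± 0.23 (SE), interval -0.61 to 0.44, was not called (limma, adjusted p = 0.814), and it was 0.11 without retinoic acid sample 2. It was -0.36 with scaling to the 75th percentile (limma, adjusted p = 0.262) and -0.33 with scaling to the median (adjusted p = 0.308), and neither was called. The rises among simple epithelium markers given for Prom1 stand beside a change in Epcam, itself a gene of epithelium, that was not called.

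Of the partners, relatives and proteases of Epcam 18 were tested, and 5 were higher, 1 lower and 12 not called, with a median change of 0.25. Only 2 were higher with either other scaling, and 2 to 4 with 1 sample left out. Cd9, a tetraspanin and itself an ES cell sorting marker, fell by 0.95 ± 0.17 (SE), from 13.74 to 12.79, and its other probe was above the limit on no array. Bace1, a protease that cuts Epcam, rose by 0.92 ± 0.20 (SE). Fhl2, which binds the cut intracellular part, rose by 2.41 ± 0.17 (SE) with its brightest probe, and its other probes changed by 0.08 and -0.38.

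Pecam1 (CD31) is an immunoglobulin-type adhesion protein of endothelium and of ES cells. Its main probe, on NM_001032378, gave 6.23, 6.16 and 6.65 in the undifferentiated samples and 6.42, 6.33 and 6.57 after retinoic acid. It was dim (intensities of 16.6 to 61.2 and 29.9 to 47.4), and the retinoic acid values lay inside the undifferentiated range. The change of 0.09 ± 0.18 (SE), interval -0.33 to 0.51, was not called (limma, adjusted p = 0.748). A second probe that the file names Pecam1, on the clone AK031380, carries the description of another gene. It changed by -0.53 ± 0.17 (SE; limma over all probes, adjusted p = 0.0537, not called) and exceeded the limit on 5 of 6 undifferentiated and 0 of 6 retinoic acid arrays.

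Endothelial cells could also carry Pecam1. Of 11 tested endothelial markers 2 rose, 3 fell and 6 were not called, and their summed intensity was 1371 to 2589 in the undifferentiated and 878 to 1369 in the retinoic acid samples. Robo4 fell by 2.36 ± 0.18 (SE) and Vwf by 1.83 ± 0.41 (SE), while Flt1 rose by 1.68 ± 0.14 (SE). Other probes changed by -0.09 and -1.47 for Vwf and by -0.11 to 1.5 for Flt1. Of the 14 markers on the array 8 exceeded the limit on all 6 undifferentiated and 7 on all 6 retinoic acid arrays. Cdh5, the cadherin that defines endothelium, exceeded the limit on 1 of 6 undifferentiated and 0 of 6 retinoic acid arrays. The part of these cells in the Pecam1 result was not tested.

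Icam1 is a ligand of leukocyte integrins, and its answer depended on the probe. The probe on BC008626, which represents the gene because its mean of log2 values is the higher, gave 8.28, 8.50 and 8.58 in the undifferentiated samples and 8.21, 8.50 and 8.21 after retinoic acid. These values overlapped, and the change of -0.14 ± 0.16 (SE), interval -0.52 to 0.24, was not called (limma, adjusted p = 0.563). The other probe, on NM_010493, has the higher mean on the linear scale (341 against 286), so the choice between them rests on the scale. It gave 9.36, 8.91 and 9.66 against 7.01, 6.92 and 7.21. Here all retinoic acid samples were far below all undifferentiated samples, with a change of -2.27 ± 0.22 (SE; limma over all probes, adjusted p = 0.000336). With the mean of both probes the gene changed by -1.20 and was called lower (adjusted p = 0.000972). Both probes exceeded the limit on all 12 arrays, and where each lies in the transcript was not analysed here.

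**Figure D4:**
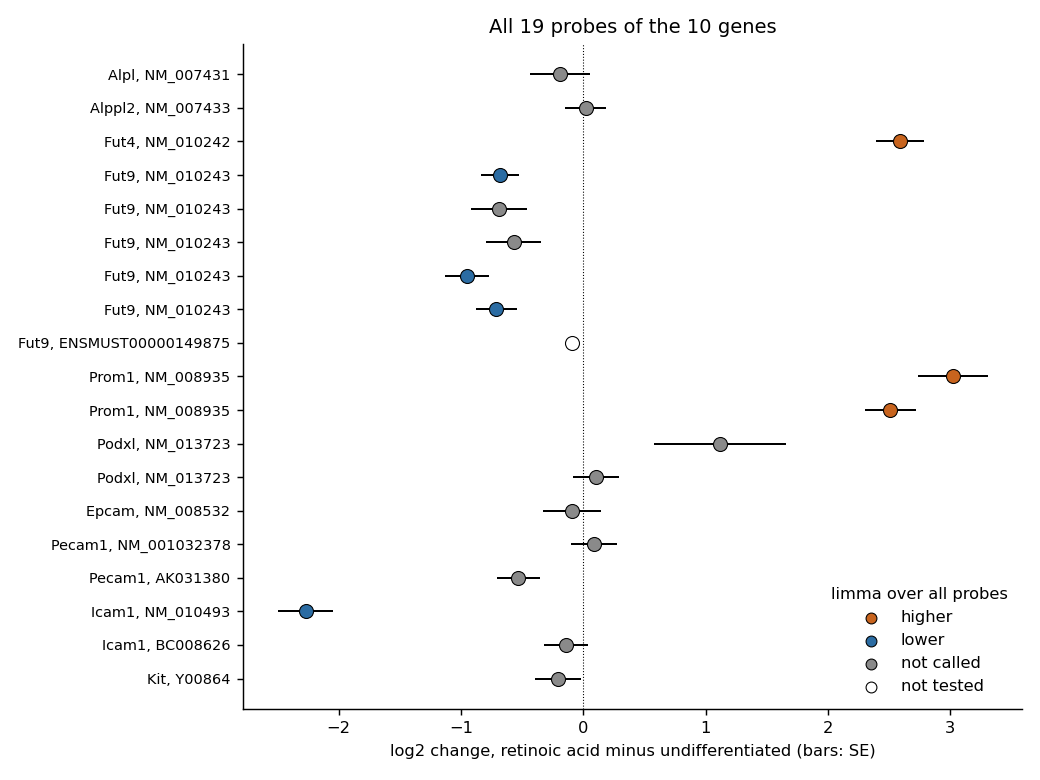
Change in log2 intensity (horizontal axis, bars ± SE) of each of the 19 probes, labelled by gene and by the transcript the file gives. The 5 testable Fut9 probes lie between -0.95 and -0.57 and both Prom1 probes at 2.51 and 3.02, while the Icam1 probes lie apart, at -2.27 and -0.14, as do those of Podxl, at 0.10 and 1.12.

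Of the 19 member probes, each by itself, 18 were tested: 3 were higher, 4 lower and 11 not called. Of all 26587 probes tested on the array, 14.0% were called higher and 11.5% lower. Probes of a gene share their samples and are no replicates. Among the immunoglobulin-type adhesion molecules and ligands listed with Pecam1 and Icam1, 18 were tested, and 4 were higher, 6 lower and 8 not called, with a median change of -0.06. Jam2, a junction protein, fell by 5.21 ± 0.23 (SE), with a second probe at -3.29. F11r, another junction protein of that family, rose by 2.68 ± 0.21 (SE). Cd38, a ligand of Pecam1, fell by 2.04 ± 0.25 (SE), and was above the limit on 3 of 6 retinoic acid arrays, with a dim second probe at -0.30. Itgal, the alpha subunit of the integrin that binds Icam1, named after its value was seen, fell by 1.15 ± 0.24 (SE), but its second probe, at -0.41, was not called (limma, adjusted p = 0.299). The beta subunit Itgb2 (0.19 ± 0.23, SE) was not called.

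Kit, the receptor tyrosine kinase for stem cell factor, is carried by ES cells, germ cells and blood progenitors. Its level was 10.11, 10.13 and 10.55 in the undifferentiated samples and 9.91, 10.12 and 10.15 after retinoic acid. Apart from a high undifferentiated sample 3, the samples of both groups lay together. The change of -0.21 ± 0.18 (SE), interval -0.62 to 0.21, was not called (limma, adjusted p = 0.432). Over the 22 alternatives it ran from -0.36 to -0.05 and was never called. Kit also had the largest technical spread of the 10 genes: its technical arrays read 10.24 and 9.58, 10.28 and 9.96, and 10.31 and 9.99 in the 3 retinoic acid samples. The largest of these differences, 0.66, exceeds the difference between the groups.

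Kitl, its ligand, changed by -0.07 ± 0.29 (SE) and was not called. Of the 18 tested genes of the list of Kit ligand, relays and related kinases 2 were higher, 1 lower and 15 not called, with a median change of 0.06. Pdgfrb, a receptor kinase of the same class, rose by 2.47 ± 0.19 (SE). Lyn, a kinase downstream of Kit, rose by 1.20 ± 0.25 (SE), and by 0.52 with its second probe, where the call was lost (limma, adjusted p = 0.111). Gab1, an adaptor, fell by 0.63 ± 0.19 (SE), and this call was lost in 10 alternatives, among them the replicate block (adjusted p = 0.0715).

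Other cells that carry Kit were looked at through their markers. Of 10 tested germ cell markers 1 rose, 5 fell and 4 were not called. Ddx4 rose by 0.86, and among the falls were Dppa3 (-3.80), Tfap2c (-3.08) and Sycp3 (-2.83), which exceeded the limit on all 6 undifferentiated arrays. Those not called were Mael (0.36), Dnd1 (0.22), Dazl (-0.16) and Prdm1 (-0.73). The summed intensity of the list was 11927 to 12716 in the undifferentiated and 5887 to 7935 in the retinoic acid samples. Of 8 tested markers of blood and its progenitors none rose, 1 fell and 7 were not called, with summed intensities of 743 to 2647 and 635 to 2483. Klf1 was called, at -0.52 ± 0.15 (SE), and this call was lost in 7 of the 22 alternatives, among them median scaling and 5 of the 6 fits without 1 sample (limma, adjusted p from 0.0568 to 0.13). Ptprc, which defines blood cells, exceeded the limit on 2 of 6 undifferentiated and 0 of 6 retinoic acid arrays. Feeder fibroblasts could carry Alpl and Icam1. Of 12 tested markers 8 rose, 1 fell and 3 were not called, with summed intensities of 8877 to 19196 and 36405 to 44684. Among the rises were Tagln (5.25), Col1a2 (3.39) and Pdgfrb (2.47). Thy1 fell (-2.07), and Acta2 (0.91), Col1a1 (-0.38) and S100a4 (-0.53) were not called. Of the 14 fibroblast markers on the array 8 exceeded the limit on all 6 undifferentiated and 12 on all 6 retinoic acid arrays, and Postn exceeded it on 2 of 6 and 0 of 6. The part of these cells in the results for Kit, Alpl and Icam1 was not tested.

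Beside the 10 members, 25 other surface proteins used to sort or stain ES cells were tested, and 5 were higher, 7 lower and 13 not called, with a median change of -0.14. Tdgf1 (Cripto), the Nodal co-receptor, fell by 5.83 ± 0.76 (SE), and Thy1, a GPI-anchored protein, by 2.07 ± 0.17 (SE), with a second probe at -0.76. Cd24a, a GPI-anchored sialoprotein, rose by 2.04 ± 0.30 (SE). E-cadherin (Cdh1), the main adhesion protein of ES cell colonies, changed by -0.36 ± 0.20 (SE) and was not called (limma, adjusted p = 0.226), as Epcam was not.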

How the data were processed

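The authors deposited 1 scanner table per array, whose values are, per the file headers, net mean intensities on a linear scale, already corrected for local background; the correction and the genome build are not given in the sources used here. They also deposited a table of processed intensities, used as an alternative. R 2.15.0 and limma are listed in the submitters' processing notes.

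The accession in the tables, matched to RefSeq genes (GRCm38.p6), named 27479 probes, the symbol 5478, an older symbol 671, the name in the file 1279 and the description 1; 6266 had no name. Control spots were left out after 27 negative controls had set each array's background limit. Intensities were quantile-normalised over 12 arrays, 50 was added, log2 was taken, and technical arrays were averaged. Groups were compared by limma 3.58.1 in R 4.3.3 (two-sided moderated test of lmFit and eBayes, no covariates) with Benjamini-Hochberg adjustment. The code was tested on simulated data. Figures used Python 3.11.15 and matplotlib 3.10.9.

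The members and lists were chosen with earlier results of these data known. Besides all members, the text names up to 3 called genes of each list, those with the largest changes and groups that do not overlap; other genes of the lists were named after their values were seen. Alternatives were other scalings, filters, added values, probe rules, technical arrays, a variance trend, a sample or replicate block, the authors' values, a stricter threshold and each sample left out. Protein sequences were not analysed here.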

Additional observations from a re-analysis of the deposited data

How the results depend on the processing

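The 3 calls among the members rest on 3 samples per group, and signals near background (Fut4 before retinoic acid, Alppl2, Pecam1) limit the sizes. Of the members, 1 was higher when a probe had to exceed the limit on all 12 arrays, which left Fut4 and Alppl2 untested, and 2 to 3 with 1 sample left out. Lower members numbered 2 with the mean of all probes (Fut9 and Icam1), 0 at an adjusted p under 0.01, and 0 to 1 with 1 sample left out (0 without retinoic acid sample 3). Of all genes 1784 were higher and 1114 lower at an adjusted p under 0.01. With 1 sample left out 2007 to 3148 were higher and 1228 to 2108 lower, with 1326 lower without retinoic acid sample 1 and 1228 without retinoic acid sample 3. Changes that turned in sign, all of genes not called, were those of Alpl (0.05 without undifferentiated sample 3, range -0.41 to 0.05 with 1 sample left out), Epcam (0.11 without retinoic acid sample 2, range -0.26 to 0.11), Alppl2 (0.00 with 75th percentile scaling, -0.01 with technical array 2 alone, 0.00 without the array with the doubtful header, and -0.05 to 0.13 with 1 sample left out, below 0 without undifferentiated sample 3 or retinoic acid sample 2 or 3) and Pecam1 (-0.22 with the mean of probes, -0.53 with the second brightest probe, -0.04 with technical array 1 alone and 0.00 to 0.24 with 1 sample left out, the lowest without undifferentiated sample 2); the cause was not tested. For Pecam1 the second brightest probe is the one described as another gene, and the mean of probes includes it. Scaling to the 75th percentile gave 2446 higher and 2644 lower genes, with a median change of -0.088, and scaling to the median 2383 and 2238, with -0.062. Samples sharing a replicate number correlated in their deviations at -0.06, 0.22 and 0.07, so the numbers were not taken to pair the samples. The arrays of sample 3 had the highest median intensities in either group, 67.0 and 67.3 undifferentiated and 96.6 and 93.5 with retinoic acid. Whether this marks a shared batch was not tested. With the replicate block 2 members were higher and 1 lower, and 2849 and 2040 of all genes. Other changes of side were those of Fut9, Podxl and Icam1 given above.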
